A study of Homo sapiens with 2 samples.

Results

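Genes of glycolysis, the citrate cycle and the respiratory chain were examined after 24 h with ezetimibe in SNU-449, a line of human hepatocellular carcinoma cells. Ezetimibe lowers blood cholesterol by blocking NPC1L1, the protein through which gut cells take up sterols. There was 1 library of total RNA from control cells and 1 library from cells treated with ezetimibe. Both came from the same line, grown in medium with fetal bovine serum. The labels give no dose, no vehicle and no number of cultures behind a library. With 1 library per condition no difference has a replicate check, and every statement describes these 2 libraries.

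The authors' deposited table lists, for each KEGG pathway, the genes they called changed and their direction, with no level, fold change or p per gene. A gene listed as up was read as higher after ezetimibe, because the comparison names the treated cells first; no value in the table can check that order. The genes described here are all those listed under 6 pathways, leaving out the subunits of the vacuolar proton pump (symbols starting with ATP6V) and the genes of the mitochondrial genome (MT-). The 6 pathways are Glycolysis / Gluconeogenesis, Citrate cycle (TCA cycle), Pentose phosphate pathway, Fructose and mannose metabolism, Pyruvate metabolism and Oxidative phosphorylation. They gave 52 genes of the 2238 in the table. The members were chosen by the authors' call of a change in this same comparison, so their calls and directions are a description and carry no test. The table holds no value per gene, so genes just inside and just outside the authors' threshold cannot be shown. A gene absent from the table may have missed the authors' threshold, been silent, or lain in none of their pathways.

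Glycolysis splits glucose in the cytosol into pyruvate, which is either reduced to lactate or carried into mitochondria. There the pyruvate dehydrogenase complex turns it into acetyl-CoA, the citrate cycle oxidises it, and the respiratory complexes use the electrons to drive ATP synthase. Side branches make ribose and NADPH (the pentose phosphate pathway) and the activated sugars GDP-mannose and GDP-fucose used to build glycans. Liver cells also run glycolysis backwards to release glucose, and liver cancer cells commonly make lactate even when oxygen is present.

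The up list held 17 of the 52 genes and the down list 35. That is 32.7% up (95% interval 20.3 to 47.1, by the exact Clopper-Pearson method, covering counting error alone), beside 32.5% of the 2186 other listed genes. Over all 8877 background genes of the authors' pathways, 25.2% were listed as changed, 8.20% as up and 17.0% as down. The rule used this contrast, so nothing is read from the members' own count. Of the 52 genes, 38 lay in exactly 1 of the 6 pathways, 11 in 2 and 3 in 3. The 3 were the aldolase ALDOC, the dehydrogenase subunit DLD and the gluconeogenic enzyme PCK2.

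None of the 6 pathways was enriched among the changed genes by the authors' own p. In the authors' deposited table, Glycolysis / Gluconeogenesis had 20 changed genes of 72, 5 up and 15 down (rich factor 1.10, p = 0.566). The rich factor compares how much of the changed set a pathway holds with how much of the background it holds, and 1 means no enrichment. In the authors' deposited table the citrate cycle had 3 up and 6 down of 31 (rich factor 1.15, p = 0.523), and Pyruvate metabolism 2 up and 10 down of 42 (rich factor 1.13, p = 0.536). Fructose and mannose metabolism had 5 up and 5 down of 34 (rich factor 1.17, p = 0.491 in the authors' deposited table). The authors' deposited table gives the pentose phosphate pathway 2 up and 5 down of 31 (rich factor 0.896, p = 1) and Oxidative phosphorylation 12 up and 19 down of 158 (rich factor 0.778, p = 1). The numbers for Oxidative phosphorylation include the proton pump and mitochondrially encoded genes that the rule left out, and 11 of its 31 changed genes are members. The changed share of these pathways ran from 19.6% for Oxidative phosphorylation to 29.4% for Fructose and mannose metabolism, around the 25.2% of all background genes.

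**Figure D1:**
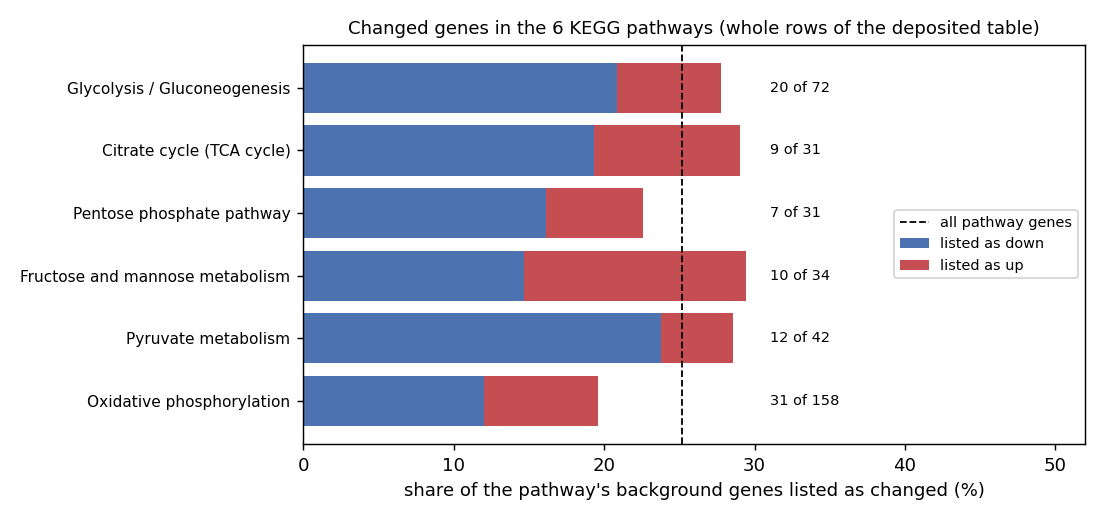
Share of each pathway's background genes listed as changed (x axis, percent), with genes listed as down in blue and as up in red, and the number of changed genes of the background printed beside each bar; the dashed line is the 25.2% over all pathway genes. Oxidative phosphorylation, whose bar includes the proton pump and mitochondrially encoded genes, is the lowest at 19.6%, and the share listed as up is widest in Fructose and mannose metabolism.

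For the account by role, the genes were sorted into 19 lists of enzymes drawn from textbook biochemistry, with 238 symbols. These lists, too, were chosen with earlier results of these data known, so nothing is read from their shares in the table. Of the 238 symbols 51 are in the table (21.4%, beside 25.2% of all background genes), 17 as up and 34 as down. Coordinates are those of GENCODE release 29 on the GRCh38 assembly and mark the span of the gene. The authors' own annotation and genome build, both not given in the sources used here, may differ from it.

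Over the lists of upper glycolysis, lower glycolysis and lactate dehydrogenases, 10 of 35 genes were in the table, 28.6%, close to the 25.2% of all background genes. Of these 10, 3 were listed as up and 7 as down, near the split of all listed genes. In upper glycolysis, the hexokinase-like gene HKDC1 (ENSG00000156510, chr10:69220303-69267559, plus strand) was listed as up. Glucose-6-phosphate isomerase GPI and the aldolase ALDOC (ENSG00000109107, chr17:28573115-28577264, minus strand) were listed as down. The main hexokinases HK1 and HK2 and the phosphofructokinases PFKL, PFKM and PFKP are not in the table, and neither is any of the 5 listed regulators of fructose bisphosphate, which set the pace of the pathway.

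In lower glycolysis, the enolase ENO2 (ENSG00000111674, chr12:6913745-6923698, plus strand), the isoform typical of neurons, was listed as up. The phosphoglycerate mutase PGAM1 (ENSG00000171314, chr10:97426160-97433441, plus strand), its copy PGAM4 and the inositol phosphate phosphatase MINPP1 were listed as down. GAPDH, PGK1, ENO1 and PKM are not in the table. Both major lactate dehydrogenase subunits, LDHA (ENSG00000134333, chr11:18394388-18408425, plus strand) and LDHB, were listed as down, whereas the mitochondrial D-lactate dehydrogenase LDHD (ENSG00000166816, chr16:75111860-75116771, minus strand) was listed as up. LDHA and LDHB share 64.1% of aligned coding bases, with no identical run longer than 17 bases.

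The calls of PGAM1 and PGAM4 may not be separate observations. PGAM4 is a single-exon copy of 765 bases that lies within the span of ATP7A and of PGK1 on the X chromosome, on the opposite strand, and ATP7A was itself listed as down. The coding sequences of the pair are 762 bases each and differ at 13, with an identical run of 269 bases. The 120-base stretch with the most differences is shown for both, to let the near-identity be seen; it covers coding bases 69 to 188, counted from 1 at the A of the start codon, and capitals mark the 4 positions that differ.
PGAM1: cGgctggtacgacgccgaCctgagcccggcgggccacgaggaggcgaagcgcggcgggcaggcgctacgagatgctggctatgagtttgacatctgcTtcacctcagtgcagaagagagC
PGAM4: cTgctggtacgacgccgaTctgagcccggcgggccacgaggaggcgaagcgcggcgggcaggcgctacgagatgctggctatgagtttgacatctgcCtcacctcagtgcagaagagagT
With the authors' handling of reads shared by such copies not given in the sources used here, PGAM4's direction is uncertain.

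Of the 8 enzymes of glucose production, 2 are in the table (25%, beside 25.2% of all background genes), both as up. They were the mitochondrial phosphoenolpyruvate carboxykinase PCK2 (ENSG00000100889, chr14:24094053-24110598, plus strand) and the widely expressed glucose-6-phosphatase G6PC3. The cytosolic carboxykinase PCK1, fructose bisphosphatase FBP1 and pyruvate carboxylase PC are not in the table. The epimerase GALM and the phosphoglucomutase PGM2 (ENSG00000169299, chr4:37826633-37862937, plus strand), which bring other sugars and glucose 1-phosphate into the pathway, were both listed as down.

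The listed genes of fructose, mannose and fucose metabolism went both ways. In this list 7 of 15 genes are in the table (46.7%, beside 25.2% of all background genes). Over the whole Fructose and mannose metabolism pathway the changed share was 29.4%. Of the 7 genes in the list, 4 were listed as up and 3 as down, beside 32.5% up over all listed genes. The 4 listed as up were the phosphomannomutase PMM2, the GDP-mannose pyrophosphorylase subunits GMPPA (ENSG00000144591, chr2:219498867-219506989, plus strand) and GMPPB, and TSTA3 (now GFUS). TSTA3 is a later enzyme of GDP-fucose synthesis from GDP-mannose. PMM2 and GMPPB act in consecutive steps, and GMPPA regulates GMPPB. The isomerase MPI, the second phosphomannomutase PMM1 and GMDS, the first enzyme of GDP-fucose synthesis, are not in the table. The 3 listed as down were FPGT, which makes GDP-fucose from salvaged fucose, the fructose kinase KHK, and the aldo-keto reductase AKR1B10 (ENSG00000198074, chr7:134527592-134541408, plus strand). A further member of this pathway, ENOSF1 (ENSG00000132199, chr18:670324-712676, minus strand), an enzyme of fuconate breakdown that was in no role list, was listed as down.

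In the pentose phosphate pathway the listed genes were split. In the oxidative branch, 1 of 6 genes is in the table (16.7%, beside 25.2% of all background genes). It was 6-phosphogluconolactonase PGLS (ENSG00000130313, chr19:17511629-17521288, plus strand), listed as up. PGD, a dehydrogenase of the branch that makes NADPH, is not in the table. In the non-oxidative branch, 3 of 13 genes are in the table (23.1%, beside 25.2% of all background genes). Transaldolase TALDO1 (ENSG00000177156, chr11:747329-765024, plus strand) was listed as up, and the deoxyribose phosphate aldolase DERA and the phosphoribosyl pyrophosphate synthetase PRPS2 (ENSG00000101911, chrX:12791355-12824222, plus strand) as down. PRPS2 makes the activated ribose used for nucleotide synthesis.

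The subunits of the large mitochondrial dehydrogenases went both ways. Of the 5 genes of the pyruvate dehydrogenase complex, 1 is in the table (20%, beside 25.2% of all background genes). It was DLD (ENSG00000091140, chr7:107890970-107931730, plus strand), listed as down. DLD encodes the dihydrolipoamide dehydrogenase that the pyruvate and 2-oxoglutarate dehydrogenase complexes share. The other 2-oxoglutarate dehydrogenase genes in the table were DLST, the succinyltransferase core, listed as up, and OGDHL, a tissue-restricted form of the first subunit, listed as down. Elsewhere in the cycle, fumarase FH (ENSG00000091483, chr1:241497603-241519761, minus strand) and the succinyl-CoA synthetase subunit SUCLA2 were listed as down. In all, 5 of the 18 citrate cycle genes in the list were in the table (27.8%, beside 25.2% of all background genes). Of these 5, 2 were listed as up and 3 as down. Citrate synthase CS and the isocitrate and malate dehydrogenases are not in the table.

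Of 17 alcohol and aldehyde dehydrogenase genes, 5 are in the table (29.4%, beside 25.2% of all background genes), 1 as up and 4 as down. The aldehyde dehydrogenases ALDH1A3, which makes retinoic acid, ALDH3A2, which acts on fatty aldehydes, ALDH3B1 and ALDH7A1 (ENSG00000164904, chr5:126531200-126595418, minus strand), which acts in lysine breakdown, were all listed as down. The aldehyde reductase AKR1A1 (ENSG00000117448, chr1:45550543-45570049, plus strand) was listed as up. Of 16 genes of the acetyl-CoA and pyruvate side reactions, 4 are in the table (25%), all as down. They were the mitochondrial acetyl-CoA synthetase ACSS1, the acetyl-CoA carboxylase ACACB (ENSG00000076555, chr12:109116595-109268226, plus strand), the mitochondrial malic enzyme ME3 and the acylphosphatase ACYP1. ACACB makes the malonyl-CoA that limits fatty acid entry into mitochondria.

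Few nuclear genes of the respiratory complexes were in the table. Of 90 genes for complexes I to V, 10 were listed, 11.1%, beside 25.2% of all background genes. Of these 10, 3 were listed as up and 7 as down. None of the 10 genes of complex III and none of the 15 of ATP synthase is in the table. In complex I, 4 of 39 genes were listed (10.3%). NDUFA11 (ENSG00000174886, chr19:5891276-5904006, minus strand) and NDUFB9 were listed as up, and NDUFA5 (ENSG00000128609, chr7:123536997-123558255, minus strand) and NDUFB3 as down; all 4 are accessory subunits. In complex II, the flavoprotein SDHA (ENSG00000073578, chr5:218241-256700, plus strand) and the membrane anchor SDHD were listed as down, 2 of 4 genes (50%). In complex IV, COX7A2L (ENSG00000115944, chr2:42333546-42425088, minus strand), a factor that joins complexes III and IV into supercomplexes, was listed as up. The subunits COX6C (ENSG00000164919, chr8:99873200-99894062, minus strand) and COX7B and the copper assembly factor COX11 were listed as down. The mitochondrial pyrophosphatase PPA2 (ENSG00000138777, chr4:105369077-105474081, minus strand) was listed as down.

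The direction of these nuclear genes can be set beside the genes the rule left out of the same pathway. There, the proton pump had 9 of 11 genes up and 2 down, and all 9 mitochondrially encoded genes were down. The 11 genes kept from this pathway, PPA2 among them, had 3 up and 8 down. No test of the difference was made, since the directions come from the contrast that chose the genes.

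**Figure D2:**
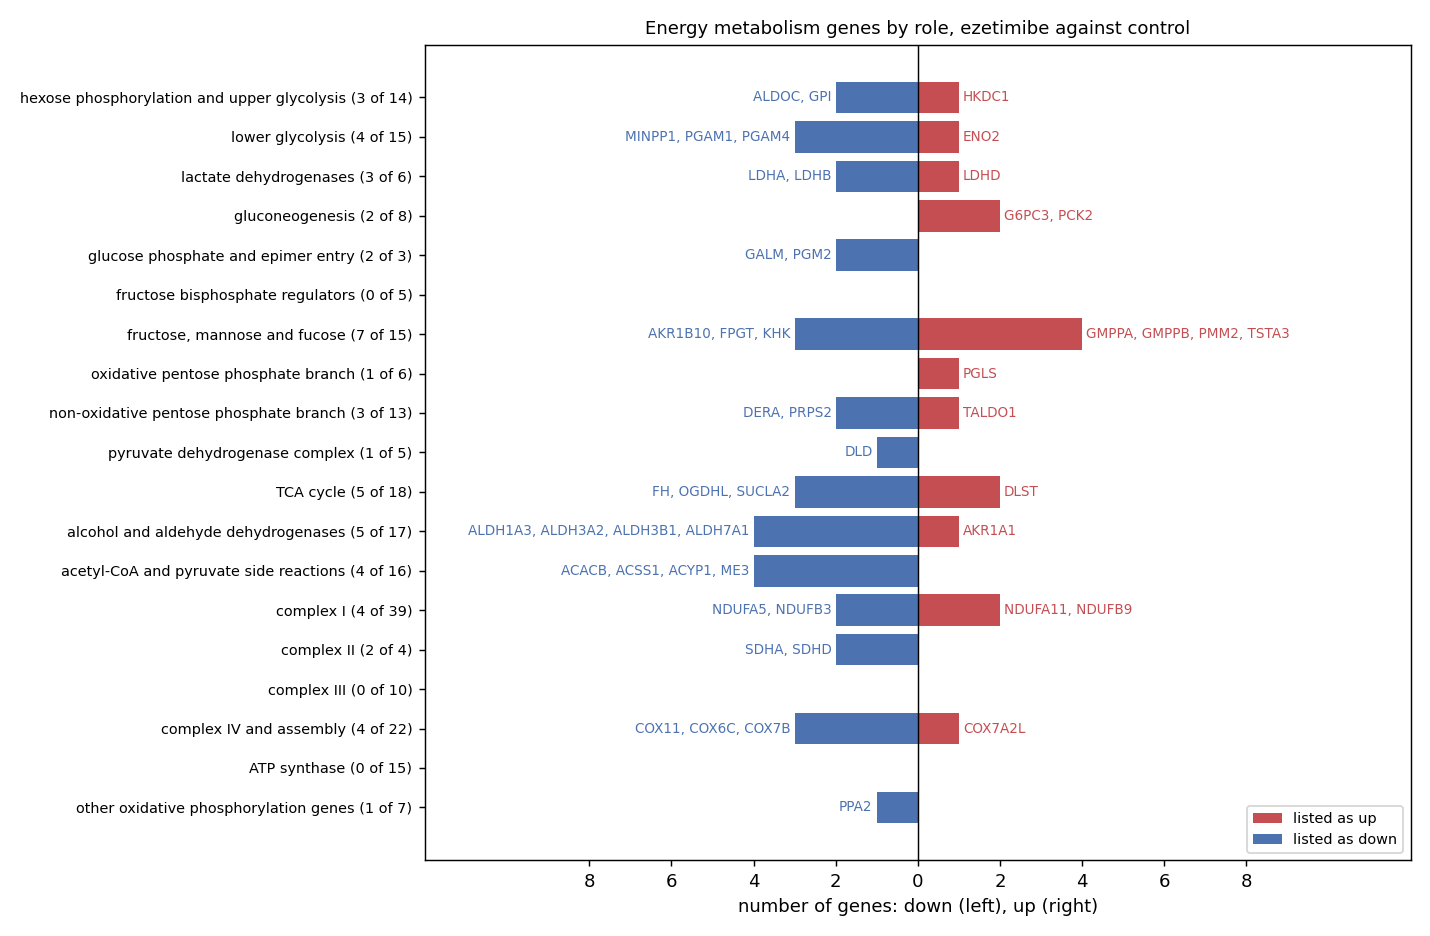
Number of genes listed as down (blue, left of 0) and as up (red, right of 0) in each role list, with the symbols of those named; the numbers beside each name are the genes in the table of all genes in the list. The fructose, mannose and fucose row has 4 genes to the right and 3 to the left, and complex III and ATP synthase have no gene in the table.

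The carriers and regulators around these pathways, which the rule does not take, were read from 7 further lists. Of 76 symbols 30 were in the table (39.5%, beside 25.2% of all background genes). Of these 30, 10 were listed as up and 20 as down, again near the split of all listed genes. The lists were chosen with earlier results of these data known, so nothing is read from the share in the table. Among carriers, the glucose transporter SLC2A1 was listed as up, and the liver glucose transporter SLC2A2 and the mitochondrial dicarboxylate carrier SLC25A10 as down. No lactate carrier of the SLC16A family, no mitochondrial pyruvate carrier and none of the 6 pyruvate dehydrogenase kinases and phosphatases is in the table. The adenine nucleotide carrier SLC25A6 was listed as up and the porin VDAC3 as down.

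Of 14 regulators of glycolysis and mitochondrial content, 8 are in the table (57.1%, beside 25.2% of all background genes). Of these 8, 2 were listed as up and 6 as down, near the split of all listed genes, of which 32.5% were up. Those listed as down were the hypoxia factor subunit HIF1A, the coactivator PPARGC1A, the AMP-activated kinase subunits PRKAA1 and PRKAA2, the mitochondrial transcription factor TFAM and the mitochondrial deacetylase SIRT3. Those listed as up were MYC and the second hypoxia factor EPAS1. Of 12 assembly factors of complex I, 4 are in the table (33.3%). NDUFAF2 and NDUFAF3 were listed as up, and NDUFAF5 and NDUFAF7 as down.

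Glycogen metabolism had 10 of 14 genes in the table (71.4%, beside 25.2% of all background genes). Of these 10, 3 were listed as up and 7 as down, beside 32.5% up over all listed genes. The muscle phosphorylase PYGM and the phosphorylase kinase catalytic subunits PHKG1 and PHKG2 were listed as up. Those listed as down included the brain phosphorylase PYGB, the kinase GSK3B, the UDP-glucose synthase UGP2 and the phosphorylase kinase subunit PHKA2. For glutamine and aspartate entry, 3 of 8 genes are in the table (37.5%), 1 as up and 2 as down. The aspartate aminotransferase GOT1 was listed as up and the glutaminase GLS2 as down.

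**Figure D3:**
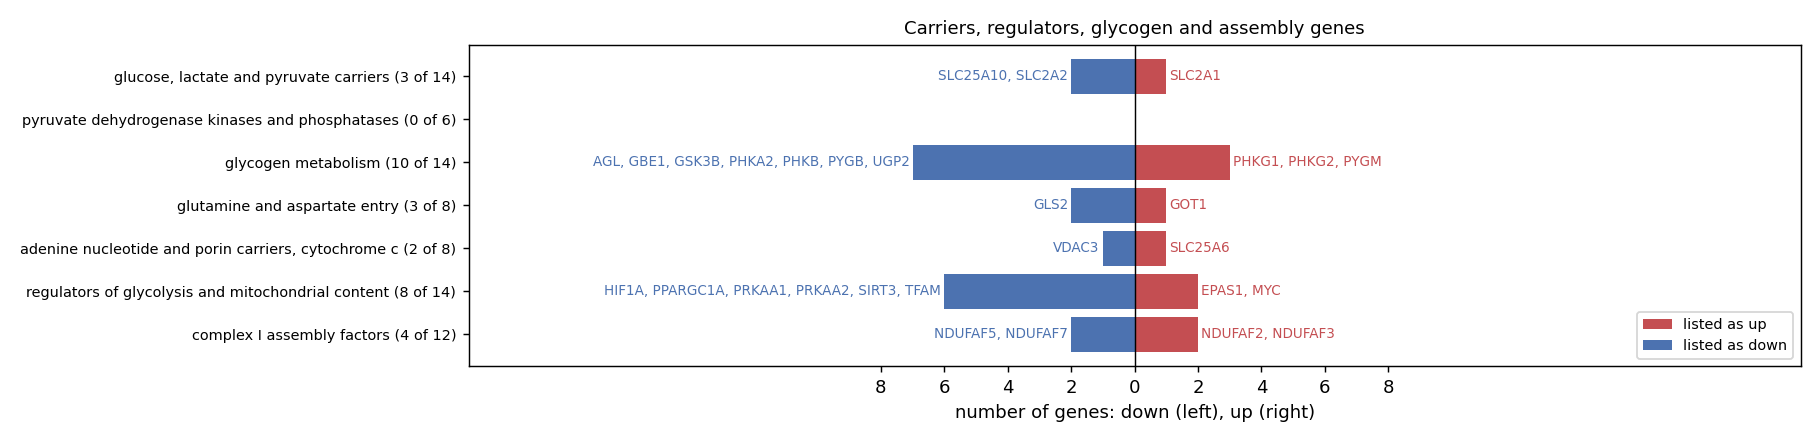
Number of genes listed as down (blue, left of 0) and as up (red, right of 0) in the 7 lists of carriers, regulators, glycogen and assembly genes, with the symbols of those named and the genes in the table of all genes in the list beside each name. Regulators show 6 genes to the left and 2 to the right, and glycogen metabolism 7 and 3.

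Genes listed as up had transcripts richer in G and C than those listed as down. The median GC content of the longest transcript was 56.4% over the 17 genes listed as up (lowest 43.5%, highest 63.1%) and 46.7% over the 35 listed as down (35.0% to 59.5%). The groups overlapped: COX7A2L, at 43.5%, was listed as up, and ALDH3B1, at 59.5%, as down. Over all listed genes the medians were 55.2% and 43.6%, so the same difference was present in the whole table. Of the 32 genes above the table's median of 47.0%, 15 were listed as up (46.9%), and of the 20 at or below it, 2 (10.0%). The corresponding shares over all listed genes were 52.7% and 12.4%. The lactate dehydrogenases followed this order, with 63.1% for LDHD, listed as up, and 44.0% and 46.5% for LDHA and LDHB, listed as down. In complex I, NDUFA11 and NDUFB9, listed as up, had 62.7% and 45.7%, and NDUFA5 and NDUFB3, listed as down, 35.0% and 44.1%; NDUFB9 lies below the table's median. In the fructose, mannose and fucose list, the 4 genes listed as up ran from 47.2% for PMM2 to 62.9% for TSTA3, and the 3 listed as down from 35.5% for FPGT to 58.4% for KHK. The part of base composition in the calls was not tested.

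Gene span was shorter in the up group, with a median of 16546 bases, than in the down group, with 33241. Over all listed genes the medians were 17892 and 52751 bases, the same order. Transcript length did not follow the whole table. The median longest transcript was 2811 bases in the up group and 2484 in the down group, against 2860 and 4401 over all listed genes.

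**Figure D4:**
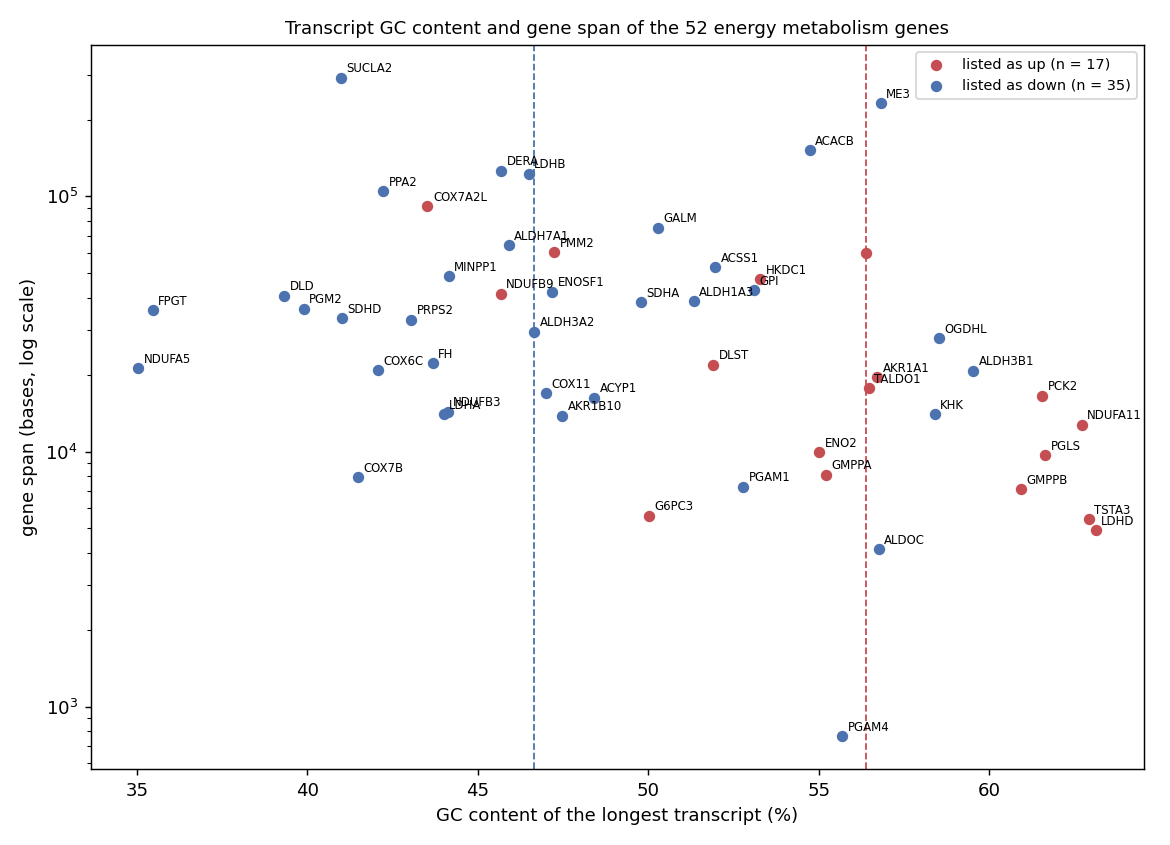
GC content of the longest transcript (x axis, percent) against gene span (y axis, bases, log scale) for the 52 genes, red for those listed as up and blue for those listed as down, with symbols for those named; the dashed lines are the medians, 56.4% and 46.7%. Below 43.5% every gene is listed as down, and above it both colours occur.

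Some calls may take in reads from a neighbour. Of the 52 genes, 21 overlap another protein-coding gene in GENCODE, 15 of them one on the opposite strand. Any use of strand by the authors' counting was not given in the sources used here, so reads of such pairs may not be separable. For 4 genes the neighbour is itself in the table, and 3 of them are named here. ENOSF1 and thymidylate synthase TYMS, both listed as down, overlap by 3255 bases, and DLD and the laminin LAMB1, both listed as down, by 7932 bases. PGAM4 lies within ATP7A, as above.

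Promoters were compared because members listed in the same direction might share sequence. RefSeq promoters (GRCh38.p14), from 250 bases before to 50 after the start, matched 44 of the 52 genes, 13 listed as up and 31 as down; no promoter was used for the other 8, among them AKR1B10, COX11, COX6C, KHK, LDHD, NDUFB9 and TSTA3. The E-box CACGTG, a palindrome, was in 9 of 44 promoters (20.5%, exact 95% interval 9.80 to 35.3), in 4 of 13 for genes listed as up and 5 of 31 for genes listed as down. It was in 10.2% of the 1799 promoters of all listed genes and in 7.26% of all 35116 promoters in the table, which include noncoding genes. Over all listed genes it was in 12.9% of promoters of those listed as up and 8.91% of those listed as down. The 8 matches before the start are shown with up to 10 bases on each side, cut at the edges of the 250-base window, in the gene's own direction and with the E-box in capitals. The first 4 genes were listed as up and the last 4 as down. The choice of these sequences was made after the matches were seen.
AKR1A1 (chr1:45550807-45550825, plus strand): ttgcaccgccCACGTGgcc
G6PC3 (chr17:44070661-44070677, plus strand): cCACGTGcctgcaacag
GMPPA (chr2:219498869-219498890, plus strand): tgcgagaagaCACGTGcgcgga
NDUFA11 (chr19:5903907-5903932, minus strand): cctggggatgCACGTGctactctctt
ALDH3A2 (chr17:19648694-19648719, plus strand): cagcggctgtCACGTGggccgcccag
ALDOC (chr17:28577120-28577145, minus strand): aagtgcccggCACGTGgtaaagggat
ME3 (chr11:86672531-86672556, minus strand): tggggaaaacCACGTGcacgcagtgc
PGM2 (chr4:37826480-37826505, plus strand): acccttctcaCACGTGccaggttcca
The match in AKR1A1 starts 9 bases before the start and that in GMPPA 12, whereas those in ALDOC and G6PC3 lie 240 and 249 bases before it; G6PC3 has 2 matches, of which the first is shown. OGDHL has its match after the start. The flanking bases differ from gene to gene.

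The NRF1-type motif GCGCATGCG, searched on both strands, was in 3 of 44 promoters (6.82%, 1.43 to 18.7), those of FPGT, LDHA and SDHD, all listed as down. It was in 3.06% of promoters of all listed genes and in 1.92% of all promoters. By direction, over all listed genes, it was in 2.96% of promoters of those listed as up and 3.1% of those listed as down. LDHA and SDHD each had 2 matches before the start, 1 per strand and 1 base apart, so each pair covers nearly the same letters. The first match of each pair is shown, with the motif in capitals, since they belong to the lactate dehydrogenase and complex II genes described above.
LDHA (chr11:18396209-18396237, plus strand): gcgctgtaatGCGCATGCGcacgcgcaca
SDHD (chr11:112086753-112086781, plus strand): agctgtgtttGCGCATGCGcgacgggtgt
These lie 132 and 110 bases before the RefSeq start. LDHA had a further such pair after the start, and the match in FPGT runs across it. The cAMP response element TGACGTCA was in 0 of 44 promoters, the ATF4-type motif TGATGNAAN in 1 (NDUFA5) and the CLEAR-type motif GTCACGTG, which contains the E-box, in 2 (ALDH3A2 and OGDHL). Over all listed genes these were in 2.83%, 2.33% and 4.22% of promoters. A match describes letters in a window and shows neither binding nor regulation.

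The table gives no level, so the liver origin of the cells could not be checked by the level of marker genes. Of 10 hepatocyte markers 3 were in the table, all as down (FGA, FGB and FGG). Over all background genes 25.2% were listed as changed and 17.0% as down. Also listed as down were 2 of 5 cholangiocyte markers (SOX9 and SPP1) and 3 of 4 fibroblast or stellate markers (ACTA2, COL1A1 and COL1A2). Of 4 immune markers CD68 was listed as up, and none of 4 endothelial markers was listed. The part of these markers in the calls was not tested.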

How the data were processed

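The submitters' processing notes name HISAT2 (2.0.4) and StringTie (1.3.0). edgeR and KEGG enrichment appear only in the deposited table's name. Settings, build, annotation, depth and the threshold for a changed gene were all not given in the sources used here. For each of 327 pathways the authors' table holds, per the file headers, numbers of genes, changed genes by direction, an enrichment ratio (rich factor), and the authors' p-value and q-value, which take genes as units.

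Genes were taken by the pathway rule and matched by Ensembl ID to GENCODE release 29, with values for all 52. List symbols were matched through current and older symbols. The members and lists were chosen with earlier results of these data known. Every member may be named, except some genes that are not reported here by name; coordinates were given for the gene under the most pathways in each role and direction. For outside lists with more than 8 listed genes, the 4 under the most pathways per direction were named. Coding sequences were aligned globally (match 2, mismatch -1, gap opening -5, extension -1). No test was made. The motif search and intervals were tested on simulated data. Biopython 1.88, Matplotlib 3.10.9, pandas 2.3.3, SciPy 1.17.1 and NumPy 2.4.6 were run under Python 3.11.15.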

Additional observations from a re-analysis of the deposited data

How the results depend on the processing

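The share of genes listed as up stayed within its 95% interval under all 12 alternatives, from 27.9% with the mitochondrially encoded genes to 41.3% with the proton pump genes. These left out each pathway in turn, kept the excluded gene families, or kept genes of exactly 1 pathway. Another left out genes under more than 20 pathways, of which there were 0, so it changed nothing. All alternatives share genes with the reported set, and the interval is wide, from 20.3% to 47.1%. Staying inside it was therefore likely beforehand and is no check of stability. The number of genes ran from 31 to 72; it was 31 without genes that overlap another coding gene, an alternative chosen after seeing the data, with 10 listed as up and 21 as down. The difference in median GC content, 9.72 percentage points, kept its direction under all 8 alternatives, from 8.21 to 10.7. These alternatives, too, reuse genes of the reported set, so they are not separate checks. With only the 250 bases before the start, the share of promoters with the ATF4-type motif went from 2.27% to 0%. This was the loss of the match in NDUFA5, which lies after the start. The other 4 motif shares stayed within their intervals. Since the shorter window lies inside the longer one, a share could only fall or stay. That of the cAMP response element, at 0%, could only stay. No paired analysis was possible because there is 1 library per condition. The depth is unknown.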

Other observations

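Apart from 5 genes under 1 pathway only, the 52 genes also lie under other KEGG pathways. Counting the 6 pathways of the rule, the median was 6 pathways per gene, against 2 over all listed genes. Propanoate metabolism had 16 changed genes, of which 6 are members. Beside 32.5% up over all listed genes, all 6 members were listed as down: ACACB, ACSS1, DLD, LDHA, LDHB and SUCLA2. Histidine metabolism had 7 changed genes and beta-Alanine metabolism 13. The 4 members in each are the same aldehyde dehydrogenases, ALDH1A3, ALDH3A2, ALDH3B1 and ALDH7A1, all listed as down. In Amino sugar and nucleotide sugar metabolism, with 22 changed genes, 5 members were listed as up (GMPPA, GMPPB, HKDC1, PMM2 and TSTA3) and 3 as down (FPGT, GPI and PGM2). In Insulin signaling, with 55 changed genes, the members G6PC3, HKDC1 and PCK2 were listed as up and ACACB as down. These pathways are examples from a longer list, picked with the directions in view. Their other changed genes are not described here, so the members do not give the direction of a whole pathway. These pathways share genes with the 6 that chose the members, so they are not separate results.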
